A study of Homo sapiens with 12 samples.

Results

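Aminoacyl-tRNA synthetases are the enzymes that join each amino acid to its tRNA. The genes described here were chosen by symbol, 20 for enzymes that work in the cytosol and 16 for mitochondrial enzymes whose symbols end in 2, and all 36 were found among the 17520 genes of the expression table under the older symbols (AARS for AARS1, for example). All 36 passed the filter on low values. The series compared the human embryonic kidney cell line HEK293E in 2 states. In the first state, cells starved of serum overnight were pretreated with 250 nM of the mTOR kinase inhibitor Torin1 and given 200 nM insulin for 30 h. In the second, cells starved in the same way received 200 nM insulin for 30 h without Torin1. Starvation and insulin were therefore common to all samples, and the lists used here hold no untreated cells. Poly(A)-selected RNA was sequenced as input (3 libraries per state) or taken through miCLIP (3 libraries per state), where RNA is crosslinked to an antibody against the modified base N6-methyladenosine (m6A), whose position shows as base substitutions in the reads. The labels call the replicates biological without saying whether they were separate cultures, so a p-value here reflects the spread among these libraries only.

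The cytosolic and mitochondrial enzymes are mostly encoded by separate nuclear genes, and the mitochondrial ones charge the tRNAs that the mitochondrial genome encodes. GARS and KARS are exceptions, each supplying both compartments, and EPRS carries the glutamyl and the prolyl enzyme in a single protein. Several cytosolic enzymes are held together in the multisynthetase complex. Many cytosolic synthetase genes are known targets of ATF4, a transcription factor of the amino acid response whose translation is raised by mTOR complex 1, and ATF4 binds a composite element together with C/EBP proteins.

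Summed values were 11418114 to 11438881 normalized units in the libraries with Torin1 and 12424643 to 12528454 in those with insulin alone. The read depth that the spacing of low values gives was 8.22 and 11.1 M reads for insulin+Torin1 replicates 3 and 2. For the insulin libraries it was 7.35 to 11.8 M. In insulin+Torin1 replicate 1 no low whole number was unused, so its depth could not be placed by this spacing. Of the markers of the line, VIM, KRT8 and KRT18 rose, at log2 fold changes of 1.44, 1.01 and 0.57, NEFM fell (-1.05), and PAX2 stood at 8 to 11 units with Torin1 and 6 to 11 with insulin. Of 11 markers of other cell types 7 had values. They summed to 537 to 555 units with Torin1 and 300 to 369 with insulin, mostly from COL1A1, with PTPRC at 0 or 1 in every library. COL1A1 and COL3A1 rose, while CD14, with 6, 6 and 0 units with Torin1 and 95, 85 and 86 with insulin, and HBA1, with 3, 2 and 0 with Torin1 and 26, 25 and 17 with insulin, fell. The part of the line's and other markers in the results was not tested. Because RNA was measured in bulk, fewer cells and less RNA per cell cannot be told apart.

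The cytosolic synthetase genes were mostly lower with Torin1 and the mitochondrial ones mostly higher. Of 20 cytosolic genes, 14 fell and 4 rose, and of 16 mitochondrial genes, 5 fell and 10 rose (limma, Benjamini-Hochberg adjusted p below 0.05 over 13842 tested genes). Over all tested genes 42.5% fell and 43.4% rose, and 86.0% were called in either direction, beside 33 of these 36. The difference between the classes was not tested as a score. Tested against a bound of 1.5-fold, 8 cytosolic genes were lower and 3 higher, and 2 mitochondrial genes lower and 7 higher, against 22.5% of all tested genes lower and 25.0% higher. The median log2 fold change was -0.31 in the cytosolic class and 0.43 in the mitochondrial class, beside 0.02 over all tested genes. Groups did not overlap for the same number of members, where 86.3% of all tested genes did not overlap. With quantile normalization 10 cytosolic genes fell and 8 rose, against 14 and 4 as deposited.

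**Figure D1:**
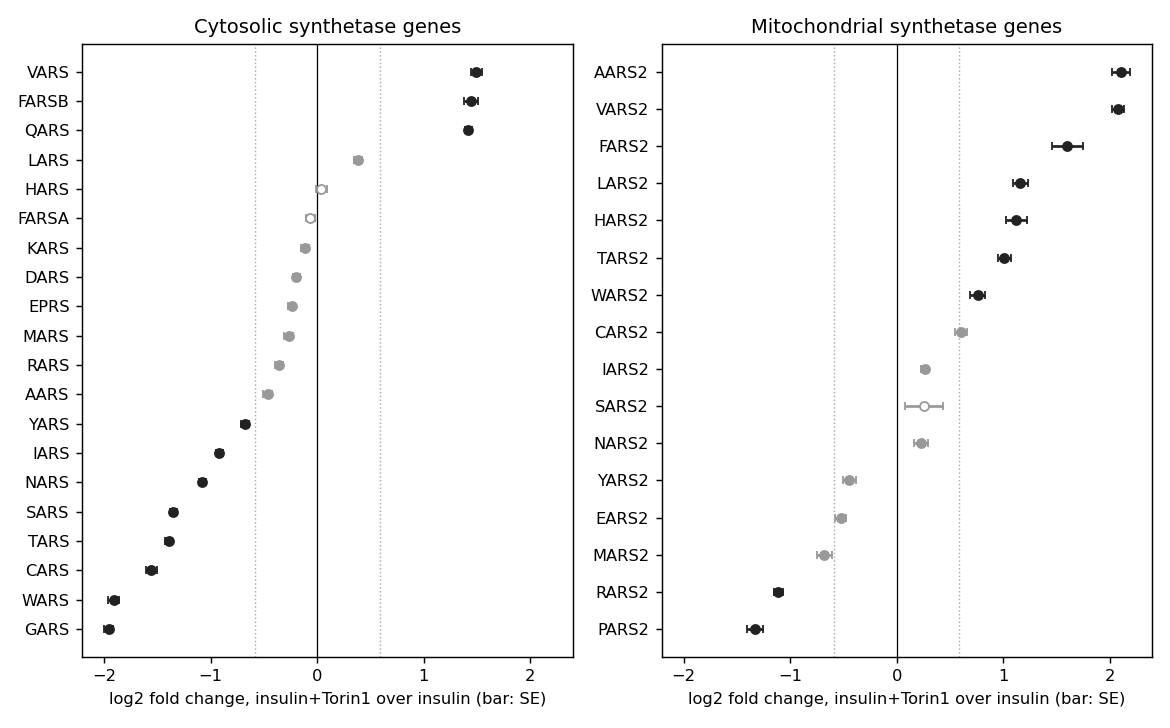
Log2 fold change (x axis, insulin+Torin1 over insulin) of each cytosolic gene (left) and mitochondrial gene (right), with the standard error from limma as bars and dotted lines at 1.5-fold. Black points were called beyond 1.5-fold, grey filled points were called for any change and open points were not called. Cytosolic genes run from GARS at -1.96 to VARS at 1.49, mitochondrial genes from PARS2 at -1.33 to AARS2 at 2.11.

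Among the cytosolic genes, GARS, the glycyl enzyme, had the lowest fold change. GARS had 1139, 1171 and 1109 normalized units in the libraries with Torin1, against 4603, 4313 and 4393 with insulin alone. WARS, the tryptophanyl enzyme, which is also known as an interferon-inducible gene, had 464, 444 and 429 units with Torin1 and 1729, 1590 and 1715 with insulin. Every Torin1 library lay far below every insulin library for both genes, at log2 fold changes of -1.96 for GARS (SE 0.038) and -1.91 for WARS (SE 0.050), which is 0.257 and 0.266 times the insulin level. The cysteinyl gene CARS followed, with 471, 445 and 461 units with Torin1 and 1362, 1330 and 1362 with insulin (-1.56). TARS, for threonine, had 2915, 2925 and 2819 units with Torin1 and 7527, 7422 and 7833 with insulin (-1.40). For both the ranges were far apart.

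SARS, the seryl gene, had 2175, 2220 and 2117 units with Torin1 and 5591, 5591 and 5415 with insulin, a log2 fold change of -1.35. NARS, for asparagine, had 2236, 2206 and 2174 with Torin1 and 4530, 4750 and 4717 with insulin (-1.08). IARS, for isoleucine, averaged 5967 ± 7.23 units with Torin1 and 11274 ± 330 with insulin (SD, n = 3 each), which is -0.92 on the log2 scale. These 3 genes showed no overlap between the groups. YARS, for tyrosine, stood at 1753, 1689 and 1780 units with Torin1 and 2851, 2702 and 2796 with insulin, a log2 fold change of -0.68. Its call beyond 1.5-fold (limma adjusted p = 0.024) did not hold without insulin replicate 1 or Torin1 replicate 2, nor with libraries scaled to equal totals or quantile normalization. For the other 7 genes lower beyond 1.5-fold the limma adjusted p of that test lay between 2.2e-19 for GARS and 4.5e-10 for IARS.

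Another 6 cytosolic genes fell by less. AARS, for alanine, averaged 1291 ± 40.5 units with Torin1 and 1784 ± 25.2 with insulin (SD, n = 3 each), or -0.47 as a log2 fold change. RARS was at -0.36, MARS at -0.27, EPRS at -0.24, DARS at -0.20 and KARS at -0.12. These small changes depended on the scale between libraries. With quantile normalization EPRS (0.073), DARS (0.10) and KARS (0.18) were called higher and MARS (-0.075) was not called, and with equal totals DARS (-0.071) and KARS (0.0080) were not called.

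FARSA and HARS were not called. FARSA had 1438, 1429 and 1531 units with Torin1 and 1514, 1532 and 1550 with insulin, so its groups overlapped (log2 fold change -0.06, limma adjusted p = 0.14). Without Torin1 replicate 3 it was called lower at -0.10, with quantile normalization it was called higher at 0.19, and with equal totals it stood at 0.061 and was not called. HARS, for histidine, had 729, 682 and 702 units with Torin1 and 664, 682 and 709 with insulin (0.04, limma adjusted p = 0.48), and was called higher at 0.17 with equal totals.

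The cytosolic genes that rose were VARS, FARSB, QARS and LARS. VARS, for valine, had 1020, 1066 and 1075 units with Torin1 and 366, 385 and 369 with insulin, a log2 fold change of 1.49 (SE 0.053). QARS, for glutamine, had 5907, 5859 and 6055 with Torin1 and 2260, 2165 and 2231 with insulin (1.42, SE 0.033). In both genes every Torin1 library was above every insulin library. FARSB encodes the beta subunit of the phenylalanyl enzyme and FARSA the alpha subunit. FARSB had 797, 811 and 802 units with Torin1 and 307, 269 and 311 with insulin, a log2 fold change of 1.44 (limma adjusted p = 9.0e-16), beside -0.06 for FARSA. LARS, for leucine, rose less, with 3671, 3553 and 3518 units with Torin1 and 2815, 2602 and 2831 with insulin (0.38).

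**Figure D2:**
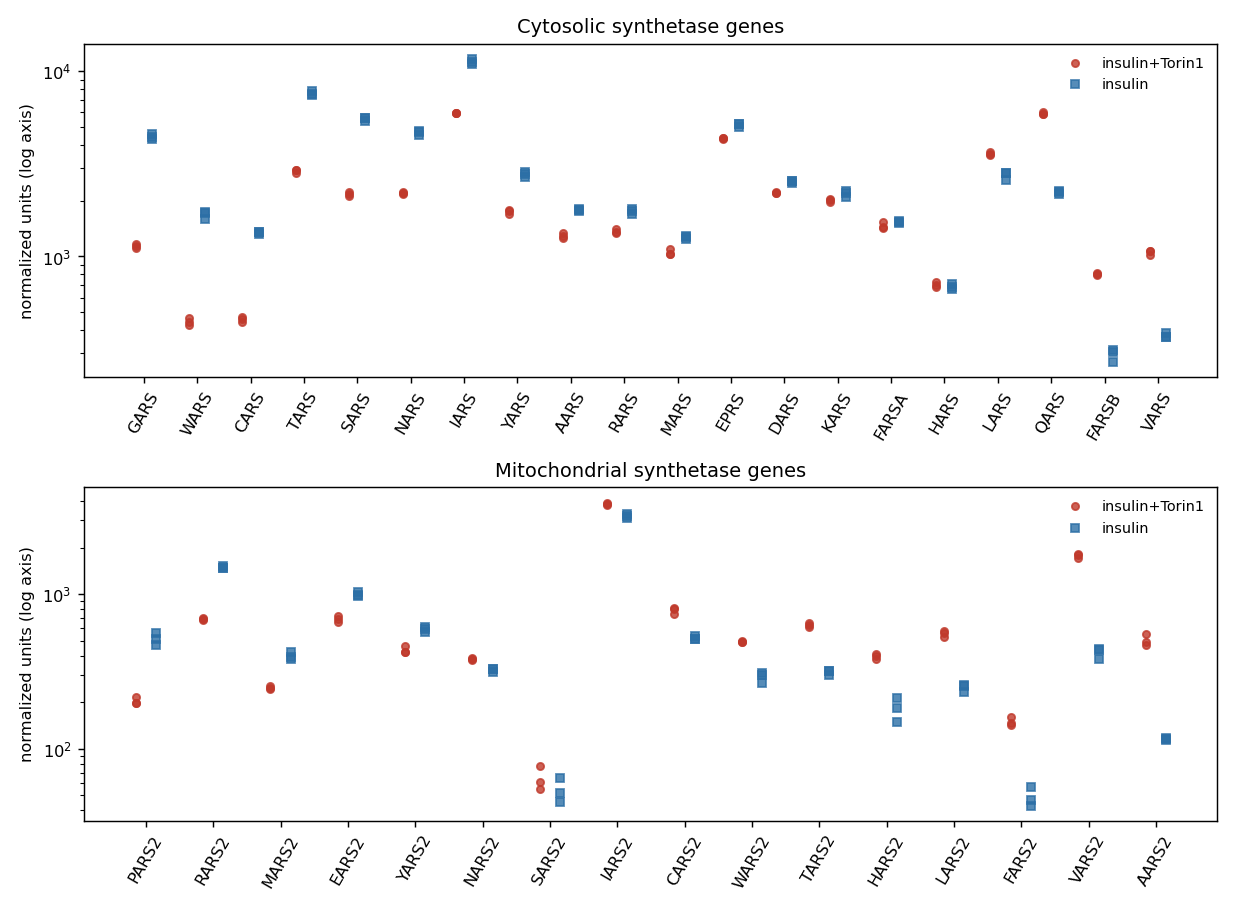
Normalized units (y axis, logarithmic) of every member in each of the 3 insulin+Torin1 libraries (red circles) and 3 insulin libraries (blue squares), cytosolic genes above and mitochondrial genes below, each ordered by log2 fold change. Values are not divided by gene length, so heights compare libraries within a gene. GARS stands at 1109 to 1171 units with Torin1 and 4313 to 4603 with insulin; groups overlap for FARSA, HARS and SARS2.

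Of the 8 enzyme genes of the multisynthetase complex 6 fell and 2 rose (median -0.22 on the log2 scale), and beyond 1.5-fold only IARS was lower and only QARS higher. Of the 12 cytosolic genes outside the complex 8 fell and 2 rose, 7 of them lower and 2 higher beyond 1.5-fold, with a median of -0.88. The difference between these lists was not tested. The complex also holds scaffold proteins. AIMP1, a scaffold gene, had 1055, 1050 and 1020 units with Torin1 and 318, 323 and 340 with insulin (log2 fold change 1.67). AIMP2 was at -0.72 and EEF1E1, which encodes the third scaffold protein, at -1.13. By catalytic fold, 7 of 10 class I genes fell and 3 rose (median -0.31), and 7 of 10 class II genes fell and 1 rose (median -0.33).

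Of 13 cytosolic genes that textbook accounts give as ATF4 targets, 11 fell and 2 (VARS and LARS) rose, and the median of their log2 fold changes was -0.92. All 8 cytosolic genes lower beyond 1.5-fold were in this list. Of the 7 other cytosolic genes 3 fell, 2 rose and 2 were not called, with a median of -0.06. The list was drawn up with earlier results of these data known and no test was made of it. ATF4 mRNA itself had 3297, 3318 and 3316 units with Torin1 and 4845, 4868 and 4778 with insulin, a log2 fold change of -0.54. MYC, a transcription factor gene of cell growth, was at 1.93.

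Promoters were searched for the composite element of C/EBP and ATF factors, as a description; no test links a match to a change. RefSeq promoters of GRCh38.p14, 250 bases before to 50 after a gene's start, were matched for 30 of the 36 members; DARS, LARS, VARS, YARS, AARS2 and VARS2 had none in the table. The motif TGATGNAA was searched on either strand. It occurred in 7 of 16 cytosolic genes (43.8%), 1 of 14 mitochondrial genes (7.14%) and 571 of 15843 protein-coding genes with a promoter in the table (3.60%). All 7 cytosolic genes with the motif (AARS, CARS, GARS, IARS, MARS, NARS and TARS) fell, the median being -1.08 on the log2 scale, although MARS was not called with quantile normalization. Of the 9 without it 5 fell, 2 rose and 2 were not called (median -0.12), and SARS and WARS were among those that fell. A match is a run of letters and not evidence of binding.

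The stretches around the motif are shown for the 5 genes with a match that were lower beyond 1.5-fold, each on the gene's own strand with the motif in capitals and at most 18 flanking bases. TTGCATCA and TTTCATCA are the motif read from the other strand.
GARS: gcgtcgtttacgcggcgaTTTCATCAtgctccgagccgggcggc
CARS: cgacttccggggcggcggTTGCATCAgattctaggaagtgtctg
TARS: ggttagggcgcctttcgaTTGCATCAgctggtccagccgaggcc
NARS: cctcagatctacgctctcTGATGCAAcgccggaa
IARS: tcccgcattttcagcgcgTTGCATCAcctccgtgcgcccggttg
The GARS stretch is chr7:30594827-30594870 on the plus strand, and its motif begins 33 bases before one of the gene's starts. In CARS (chr11:3057400-3057443, minus strand) the motif begins 2 bases before the start, and in IARS (chr9:92293685-92293728, minus strand) 13 bases before it. In TARS (chr5:33440949-33440992, plus strand) it begins 2 bases after a start and in NARS (chr18:57621807-57621840, minus strand) 14 bases after it. Apart from GARS, the genes shown carry the same 8 letters on one strand or the other. The only mitochondrial match was in YARS2, 197 bases before the start, with TGATGGAA. The E-box CACGTG, which reads the same on either strand and is bound by MYC and related factors, occurred in 1 of 16 cytosolic genes (IARS), 3 of 14 mitochondrial genes (CARS2, EARS2 and MARS2) and 10.9% of all protein-coding genes with a promoter.

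Mitochondrial genes were led by AARS2 and VARS2. AARS2, for alanine, had 492, 467 and 553 units with Torin1 and 114, 116 and 118 with insulin, a log2 fold change of 2.11 (SE 0.086). VARS2, for valine, had 1714, 1788 and 1805 with Torin1 and 441, 383 and 433 with insulin (2.08, SE 0.054). Both stood more than 4-fold higher, at 4.31 and 4.22 times the insulin level. FARS2, the mitochondrial phenylalanyl enzyme, had 146, 161 and 143 units with Torin1 and 43, 57 and 47 with insulin (1.60, SE 0.14).

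LARS2, for leucine, had 528, 580 and 559 units with Torin1 and 254, 232 and 259 with insulin (log2 fold change 1.16). HARS2, for histidine, had 408, 380 and 397 with Torin1 and 150, 212 and 185 with insulin (1.12), and TARS2, for threonine, had 629, 613 and 648 with Torin1 and 317, 302 and 319 with insulin (1.01). The groups were apart in all 3 genes. WARS2, for tryptophan, had 501, 488 and 493 units with Torin1 and 298, 267 and 311 with insulin, a log2 fold change of 0.76. Its call beyond 1.5-fold (limma adjusted p = 0.023) did not hold without insulin replicate 2, without Torin1 replicate 1 or 3, or with quantile normalization. CARS2 (0.60), IARS2 (0.26) and NARS2 (0.23) rose by less, and NARS2 was at 0.075 and not called with quantile normalization. SARS2, for serine, was low in every library, with 61, 55 and 78 units with Torin1 and 65, 45 and 52 with insulin; its groups overlapped and it was not called (0.26, limma adjusted p = 0.19, and -0.14 with quantile normalization).

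The mitochondrial genes that fell were PARS2, RARS2, MARS2, EARS2 and YARS2. PARS2, the prolyl gene, had 198, 199 and 216 units with Torin1 and 470, 563 and 516 with insulin, a log2 fold change of -1.33 (SE 0.078). RARS2, for arginine, had 688, 685 and 703 with Torin1 and 1485, 1479 and 1523 with insulin (-1.11, SE 0.044). No Torin1 library reached an insulin library in either gene. MARS2, for methionine, was at -0.68, EARS2, for glutamate, at -0.53 and YARS2, for tyrosine, at -0.45; none of these was called beyond 1.5-fold, although MARS2 was with quantile normalization.

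Setting each mitochondrial gene against the cytosolic gene for the same amino acid within a library removes a constant factor between libraries. It does not remove a scale that differs with expression level, and the ratios were not computed again with quantile normalization. There were 17 such pairs, with EPRS set against EARS2 and PARS2 and FARS2 set against both subunits. The log2 ratio of the mitochondrial to the cytosolic gene was higher with Torin1 in 13 of 17 pairs, with no overlap between groups in 12 of them, and lower without overlap in 4. No such share was computed over other gene pairs, and 86.3% of single tested genes did not overlap. Lack of overlap is therefore not particular to these pairs, and pairs that share EPRS or FARS2 are not independent. With 3 libraries against 3 an exact permutation test cannot give a p below 0.1, so none is given. The ratio rose most for WARS2 over WARS, which stood at 0.11, 0.14 and 0.20 with Torin1 and -2.53, -2.57 and -2.46 with insulin, a difference of 2.67. AARS2 over AARS differed by 2.57, TARS2 over TARS by 2.40 and CARS2 over CARS by 2.16. The ratio was lower with Torin1 for PARS2 over EPRS (-1.09), RARS2 over RARS (-0.75), MARS2 over MARS (-0.41) and EARS2 over EPRS (-0.29). Only FARS2 over FARSB overlapped (0.16), both genes being higher with Torin1. VARS with VARS2, and FARSB with FARS2, were the pairs in which both genes were called higher beyond 1.5-fold, and no pair had both called lower beyond 1.5-fold.

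**Figure D3:**
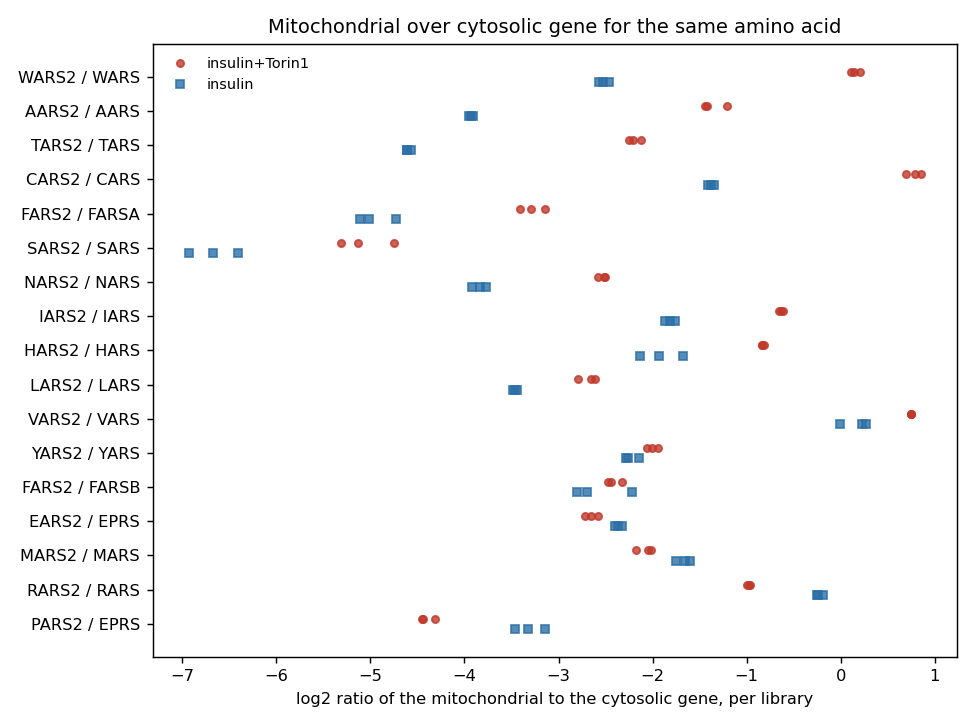
Log2 ratio of the mitochondrial to the cytosolic gene for the same amino acid (x axis) in each insulin+Torin1 library (red circles, upper) and insulin library (blue squares, lower), pairs ordered by the difference between groups. Values are not per length, so the distance between colours and not the position on the axis is the comparison. WARS2 over WARS is furthest to the right of its insulin libraries, by 2.67, and PARS2 over EPRS furthest to the left, by -1.09.

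HARS and HARS2 lie head to head on chromosome 5, and their starts at 140691370 and 140691455 (GRCh38.p14) leave 84 bases between them. The stretch is shown because the genes on its sides had unlike log2 fold changes, 0.04 for HARS and 1.12 for HARS2. It reads chr5:140691371-140691454 on the plus strand, the strand of HARS2, and holds neither motif, so no letters are in capitals.
HARS to HARS2: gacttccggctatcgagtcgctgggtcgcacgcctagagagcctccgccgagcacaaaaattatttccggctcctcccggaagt
Their log2 ratio, HARS2 over HARS, was -0.84, -0.84 and -0.82 with Torin1 and -2.14, -1.68 and -1.93 with insulin. The coding sequences of the pair are closely alike, and how reads matching both were counted is not given in the sources used here, so the split between them is uncertain.

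Other genes of tRNA charging moved both ways. Of 15, 10 fell and 5 rose (median -0.36 on the log2 scale). XPOT, which exports tRNA from the nucleus, had 2308, 2326 and 2208 units with Torin1 and 5788, 5424 and 5536 with insulin (-1.29). LARP4, an RNA-binding protein gene, was at -1.41, TRNT1, which adds the CCA end to tRNA, at -1.06, and PTRH2, a peptidyl-tRNA hydrolase gene, at -0.77. SEPSECS, of selenocysteine synthesis on tRNA, rose by 1.45 and DTD1, a deacylase that removes D-amino acids from tRNA, by 1.32. In the amidotransferase that makes mitochondrial glutaminyl-tRNA, the GATB subunit gene (PET112 in the table) was at 1.20, while GATC was at -0.50 and QRSL1 at -0.18. MTFMT, which formylates the mitochondrial initiator tRNA, was at 0.80 and AARSD1, an editing factor, at 0.70. ELAC2, PSTK, SSB and TARSL2 fell, at -0.39, -0.39, -0.36 and -0.22. QRSL1 was not called with equal totals (-0.054) or without insulin replicate 3 or Torin1 replicate 3, AARSD1 not with quantile normalization (0.36), and TARSL2 not with equal totals (-0.095) or quantile normalization (0.0098).

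The m6A lists gave 72 sites with Torin1 and 97 with insulin in the cytosolic genes, and in the mitochondrial genes 51 with Torin1 and 76 with insulin, counting sites on the gene's strand in no other protein-coding gene. Any site in the gene body on either strand gave 79 and 103 in the cytosolic genes and 56 and 95 in the mitochondrial genes. EARS2 was cut most by the rule, from 6 to 2 sites with Torin1 and from 18 to 5 with insulin. The authors deposited 1 list per state, each site under 1 replicate, so these numbers have no replicate test. Shares were taken over the entries of both lists, so a position in both lists entered once per list. Of the entries in the cytosolic genes 42.6% came from the Torin1 list (Wilson 95% interval 35.4% to 50.1%). For the mitochondrial genes it was 40.2% (32.0% to 48.9%), beside 39.7% of all entries. The intervals of these shares treat entries as independent, which positions in both lists are not. These intervals and those below cover counting error only. Among sites listed under replicate 1 alone the numbers were 69 with Torin1 and 47 with insulin in the cytosolic genes, and 46 with Torin1 and 47 with insulin in the mitochondrial genes. The share of entries from the Torin1 list was then 59.5% in the cytosolic and 49.5% in the mitochondrial genes, beside 52.6% of all entries under replicate 1. Positions in both lists numbered 31 in the cytosolic genes, 43.1% of their Torin1 sites and 32.0% of their insulin sites. In the mitochondrial genes 21 positions were in both lists, 41.2% of the Torin1 and 27.6% of the insulin sites, beside 43.1% of all Torin1 and 28.3% of all insulin sites. CARS, DARS, VARS and VARS2 held none of the listed sites.

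**Figure D4:**
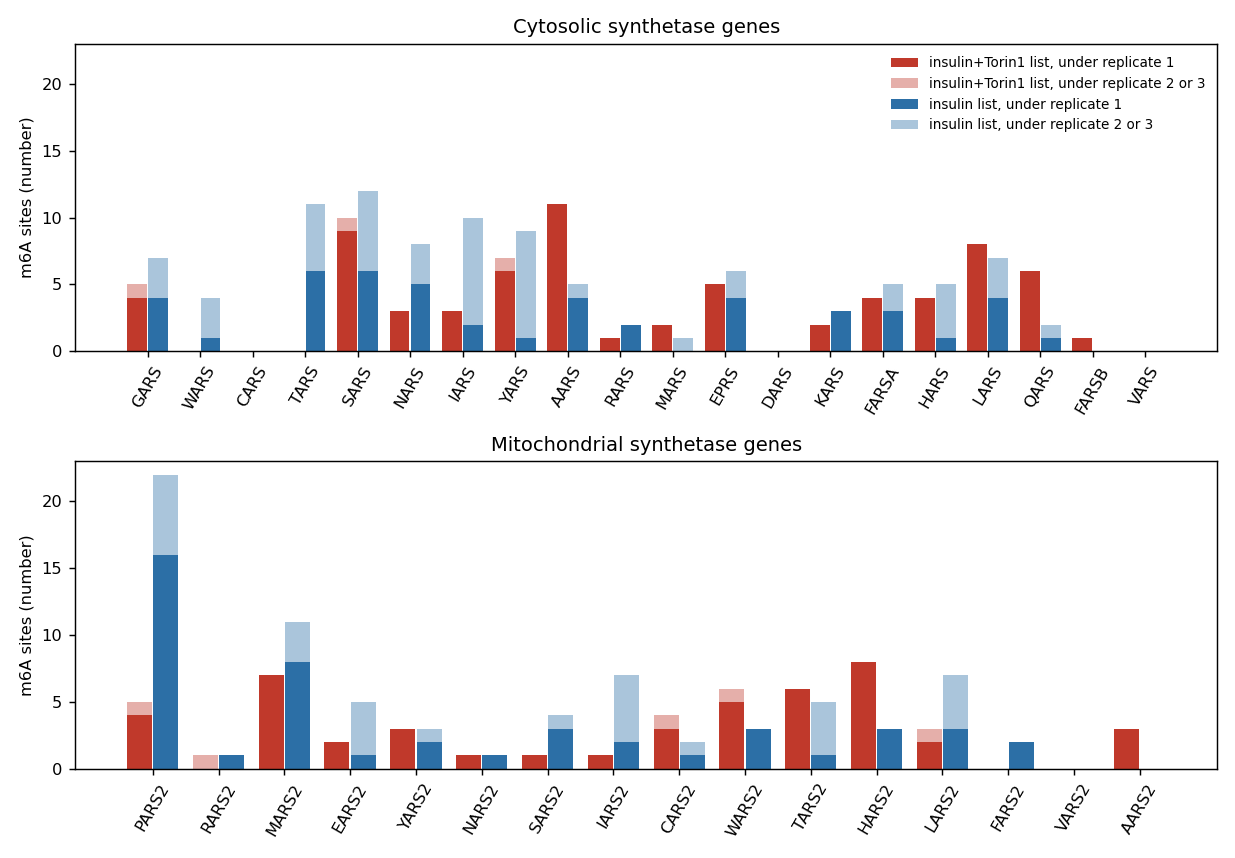
Number of m6A sites (y axis) in each member in the insulin+Torin1 list (red, left bar) and the insulin list (blue, right bar), with sites listed under replicate 1 in dark and under replicates 2 and 3 in light colour, genes ordered by log2 fold change of their mRNA. There is 1 list per state and no error bar, and sites inside another protein-coding gene are left out, which cuts EARS2 most. TARS has 0 sites with Torin1 and 11 with insulin, PARS2 has 5 with Torin1 and 22 with insulin, and HARS2 8 with Torin1 and 3 with insulin.

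PARS2 carried the most sites of any member, with 5 in the Torin1 list and 22 in the insulin list (chromosome 1, 54756898 to 54764523, GRCh38.p14). Under replicate 1 it had 4 with Torin1 and 16 with insulin. All 5 Torin1 positions were also in the insulin list, and the mRNA of PARS2 was lower too. TARS had 0 sites with Torin1 and 11 with insulin, 6 of those 11 standing under replicate 1. The mRNA of TARS was lower too, at 2819 to 2925 units with Torin1 and 7422 to 7833 with insulin. The Torin1 list held 0 sites in WARS, 3 in IARS and 3 in NARS, against 4, 10 and 8 in the insulin list. HARS2 had 8 sites with Torin1 and 3 with insulin, all under replicate 1. AARS had 11 with Torin1 and 5 with insulin although its mRNA was lower, and QARS had 6 with Torin1 and 2 with insulin. AARS2 had 3 sites with Torin1 and 0 with insulin. IARS2, whose mRNA was slightly higher with Torin1, had 1 site with Torin1 and 7 with insulin, and under replicate 1 it had 1 with Torin1 and 2 with insulin.

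Of the 14 members whose mRNA rose, 8 had more sites in the Torin1 list and 3 fewer. Of the 19 whose mRNA fell, 2 had more sites and 13 fewer. The 3 members not called all had fewer. The whole Torin1 list held 63578 sites and the whole insulin list 96671, and the same division was not made over all genes. Under replicate 1 alone the 14 genes that rose again divided into 8 with more and 3 with fewer. The 19 that fell divided into 8 with more and 8 with fewer, and the 3 not called into 2 and 1. The whole lists held 56298 sites with Torin1 and 50656 with insulin under replicate 1. A site can be listed only where reads cover it, so these numbers are not levels of methylation.

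Only sites in SARS and FARSA had at least 5 substituted reads in each list. In SARS the site at chromosome 1, 109237998 (plus strand, 5-mer TGACT, the central A being the methylated base) was 184 bases from the annotated gene end. It had 11 substituted reads of 163 with Torin1 (6.75%, Wilson 95% interval 3.81% to 11.7%) and 9 of 80 with insulin (11.2%, 6.03% to 20.0%). In FARSA the site at chromosome 19, 12922589 (minus strand, 5-mer GGACT), 110 bases from the gene end, had 8 of 47 reads with Torin1 (17.0%, 8.89% to 30.1%) and 5 of 25 with insulin (20.0%, 8.86% to 39.1%). All 4 values were listed under replicate 1, and the intervals of each pair overlapped. In HARS2 the site at chromosome 5, 140698700 (plus strand, GAACT) had 7 of 28 reads with Torin1 and was not in the insulin list. The HARS2 sites in the insulin list had 5 reads in all, against 170 in the Torin1 list. Reads at a position absent from a list are not given. In EARS2 the site at chromosome 16, 23535247 (minus strand, GGACC) was in both lists. It had 2 of 6 reads with Torin1 under replicate 1 and 5 of 14 with insulin under replicate 2.

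Sites of the classes were also compared by the first letters of the 5-mer and by position. GGAC opened 12 of 72 Torin1 sites (16.7%, 9.80% to 26.9%) and 20 of 97 insulin sites (20.6%, 13.8% to 29.7%) in the cytosolic genes. In the mitochondrial genes it opened 15 of 51 Torin1 sites (29.4%, 18.7% to 43.0%) and 25 of 76 insulin sites (32.9%, 23.4% to 44.1%), beside 32.9% of all Torin1 and 31.5% of all insulin sites. The intervals of the cytosolic genes lay below those shares over all sites, while the intervals of the classes overlapped. Among sites with at least 3 substituted reads GGAC opened 33.3% of 12 Torin1 and 25.0% of 20 insulin sites in the cytosolic genes, beside 39.7% of all Torin1 and 36.9% of all insulin sites. Within 2000 bases of the gene end lay 45.8% of Torin1 (34.8% to 57.3%) and 47.4% of insulin sites (37.8% to 57.3%) in the cytosolic genes. In the mitochondrial genes these shares were 72.5% with Torin1 (59.1% to 82.9%) and 68.4% with insulin (57.3% to 77.8%). They were not adjusted for gene length. MARS2 spans 3027 bases and PARS2 7626, and they held 11 and 22 of the 76 mitochondrial insulin sites. No such share was computed over all listed sites. Most sites rested on 1 substituted read, 65.3% of Torin1 and 59.8% of insulin sites in the cytosolic genes, and 58.8% of Torin1 and 76.3% of insulin sites in the mitochondrial genes.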

How the data were processed

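The submitters' processing notes name BWA 0.7.1, STAR, DESeq2 1.22.2, DESeq and the build hg38 without roles. The values of the 6 input libraries were normalized between libraries and rounded by the authors before they were deposited, as unused whole numbers among the low values show, and were treated as a score (normalized units), not as counts. For m6A sites the authors deposited a fraction, substituted reads over all reads at the site. The log2 of each value plus a pseudocount of 1 was fitted in R 4.3.3 by limma 3.58.1, its variance prior following the mean. The procedure was first run on simulated counts in which no genes or few genes changed. Those differ from these normalized values, where most genes were called, so that run does not bear on the scale between libraries. Genes at 10 units or more in 3 or more libraries (13842) entered the fit. Fold changes on this scale understate low genes. A change beyond 1.5-fold was tested with limma's treat. Same-numbered libraries of the groups did not deviate together. Gene bodies, names and promoters came from RefSeq GRCh38.p14; all 36 symbols matched. Strand came from the promoter table, or from most sites. All members are named; members and lists were chosen with earlier results of these data known. Alternatives were another pseudocount, no filter, equal totals, quantile normalization, array weights, a replicate block and each replicate left out. For m6A they were replicate 1 sites alone, at least 3 substituted reads, any site in the gene body, and each replicate left out.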

Additional observations from a re-analysis of the deposited data

How the results depend on the processing

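Over 13 alternatives, 28 of the 36 members kept their direction and their side of the threshold. With quantile normalization DARS (0.10), EPRS (0.073), FARSA (0.19), KARS (0.18), SARS2 (-0.14, not called) and TARSL2 (0.0098) changed sign, as did KARS (0.0080) and FARSA (0.061, not called) with equal totals. Quantile normalization called 8 rather than 4 cytosolic genes higher. The median log2 fold change of the cytosolic class was -0.094 with quantile normalization and -0.19 with equal totals, and that of the mitochondrial class 0.61 and 0.56; equal totals moved the median of all genes to 0.14, against 0.02 as deposited. Leaving out 1 library gave medians of -0.34 to -0.30 and 0.43 to 0.51, 7 to 8 cytosolic genes lower and 6 to 7 mitochondrial genes higher beyond 1.5-fold. A replicate block gave 14 cytosolic genes lower and 4 higher and 5 and 10 mitochondrial ones, the same counts as without it. Deviations of same-numbered libraries from their group means correlated at -0.023 to 0.0097. No shared deviation by number was seen, which does not settle whether the replicates were paired. For m6A, replicate 1 sites alone gave Torin1 shares of list entries of 59.5% (cytosolic) and 49.5% (mitochondrial), beside 52.6% of all entries. Of the cytosolic insulin sites under replicate 1, 44.7% were also under replicate 1 with Torin1, beside 32.1% over all sites. Leaving out the sites of 1 replicate gave Torin1 shares of list entries of 5.66% to 55.0% and 14.7% to 49.0%, beside 13.7% to 52.1% of all entries. Insulin sites in both reduced lists were then 0% to 37.3% and 0% to 30.2%, beside 2.25% to 32.5% over all sites. The 0% came from leaving replicate 1 out of both lists. Only 3 cytosolic and 5 mitochondrial Torin1 sites were then left to match, so it says little about overlap with the full Torin1 list. With at least 3 substituted reads required in each list, 1 of 9 mitochondrial insulin sites (11.1%) was in both reduced lists. Sites in EARS2 and PARS2 that passed in the insulin list were in both full lists. They had only 2 and 1 substituted reads with Torin1, so this share also says little about overlap with the full Torin1 list. Beyond the construction of each alternative, the cause was not tested. The low genes AARSD1, SARS2 and FARS2 had standard errors of 0.22, 0.18 and 0.14 (log2), and most m6A sites rest on 1 substituted read.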
